A study of Mus musculus with 4 samples.

Results

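Transcripts of the RAS-ERK cascade and of its feedback phosphatase were followed in leukemic stem cells (LSCs) of CD37 fl/fl and CD37 -/- mouse leukemia. The 7 genes, chosen by name, were the RAS GTPases Nras and Hras, the RAF kinase gene Braf, the MEK kinase genes Map2k1 and Map2k2, the ERK gene Mapk3 (ERK1) and the phosphatase gene Dusp6. All 7 were found among the 17104 genes of the deposited table of FPKM values (fragments per kilobase of a gene, relative to the library size). YFP+, c-kit+ cells were sorted from the bone marrow of male C57 mice in the secondary transplantation, 6 weeks after transfer, and 2 libraries of each genotype were sequenced. Lin- bone marrow cells of CD37 fl/fl, Rosa26-CreERT2 donors, infected with the MSCV-MLL-AF9-IRES-YFP retrovirus, started both leukemias, so that both groups carry the floxed allele, the tamoxifen-inducible Cre and the MLL-AF9 oncogene. Mice that received these cells in the first transplantation were given tamoxifen for the CD37 -/- group and corn oil for the CD37 fl/fl group, before leukemia cells were passed to new recipients, and the effect of tamoxifen and that of the deletion cannot be told apart. The replicates are described as independent, but nothing ties each to a mouse of its own, and the p-values measure the spread between these libraries, which may be technical.

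RAS proteins switch between a GDP-bound and a GTP-bound form, and in the GTP-bound form recruit RAF kinases to the membrane. RAF kinases phosphorylate the MEK kinases, which in turn phosphorylate the ERK kinases, and nuclear ERK activity induces Dusp6, whose product dephosphorylates ERK in the cytoplasm. In myeloid leukemia the pathway is known for activating mutations of RAS genes and for carrying signals of the c-kit and cytokine receptors. Only transcripts were measured here, and neither phosphorylation nor protein is in the data. In bulk RNA, a lower share of cells that express a gene and less RNA in each cell cannot be told apart.

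The limma fit of log2(FPKM + 1) held 5 of the 7 genes. None of these passed a Benjamini-Hochberg adjusted p under 0.05, and neither did any other gene (0% of the 6761 genes whose mean FPKM was 1 or more). At an unadjusted p under 0.05 were 1626 genes, or 24%, and 0 of the 5 members. Braf and Map2k1 were below the filter, and in the fit of all 16973 genes above 0 the number past the adjusted threshold was also 0. By limma-voom on recovered reads 0% of 13056 genes passed the adjusted threshold. Within that limit the libraries were ordered differently for different members. Both CD37 -/- values of Map2k1 and of Dusp6 lay above both values of CD37 fl/fl (2 of 7 members, beside 41.6% of the 13056 genes with 10 reads or more on average). For Hras, Map2k2 and Nras both lay below (3 of 7 members, beside 18.5% of those genes), and the genotypes overlapped for Mapk3 and Braf. A lack of overlap in either direction was found in 5 of the 7 members and in 60% of these genes, so that it did not set the members apart.

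The deleted gene was read first, as a check of the labels. The FPKM of Cd37 (ENSMUSG00000030798) was 56.6 and 46.8 in CD37 fl/fl against 23.2 and 22.9 in CD37 -/-, which put both CD37 -/- libraries below both CD37 fl/fl libraries. Its log2 fold change was -1.12 (SE 0.24), with a Benjamini-Hochberg adjusted p of 0.104 in limma. The floxed exons are only a stretch of the gene, and reads outside them do not report the deletion. Recovered library totals ran from 15327357 to 22627491 reads, and CD37 -/- replicate 2 was the deepest. Of the 11 leukemic progenitor markers, 10 were measured, with Elane at an FPKM of 1750 to 1884 and Hoxa9 at 38.8 to 47.2, while Cd34 reached no more than 0.04. These 3 overlapped between the genotypes and the other 7 did not. Kit, the gene of the sorted receptor (0.170 to 0.434 FPKM on its gene span), Ptprc, Hoxa10 and Meis1 were higher in CD37 -/-, and Mpo, Ctsg and Prtn3 were lower. Kit was nearly level in CD37 fl/fl replicate 2 (0.325) and CD37 -/- replicate 1 (0.327). Hoxa10 had an FPKM of 3.79 and 4.30 in CD37 fl/fl against 8.01 and 10.4 in CD37 -/-, and Mpo, the gene of myeloperoxidase, 80.3 and 51.6 against 34.4 and 20.8. All 8 erythroid markers were higher in both CD37 -/- libraries, with a summed FPKM of 61.0 and 5.17 in CD37 fl/fl and of 577 and 144 in CD37 -/-, and none of them was at 0 in all libraries. The 8 neutrophil granule markers summed to 3683 in CD37 fl/fl replicate 2 and to between 10478 and 18635 in the other 3 libraries. The macrophage and dendritic cell markers summed to 152 and 79.3 in CD37 fl/fl and to 51.4 and 104 in CD37 -/-, the 4 measured T and NK cell markers stayed at or below 0.368 in sum, and the stromal and endothelial markers at or below 1.68. Among the 5 measured B cell markers, Cd79b had an FPKM of 12.5 and 15.3 in CD37 fl/fl and of 8.02 and 6.16 in CD37 -/-. The erythroid markers and 7 of the progenitor markers lay apart between the genotypes. Of the neutrophil granule markers 2 were higher in both CD37 -/- libraries, and of the B cell markers 2 were higher and 1, Cd79b, lower. Among the T and NK cell markers 1 was higher, and among the stromal and endothelial markers 1 was higher and 1 lower. Of the 7 genes described here 5 lay apart, as did 60% of the 13056 genes with 10 reads or more on average. The part of these markers in the differences of the genes described was not tested.

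**Figure D1:**
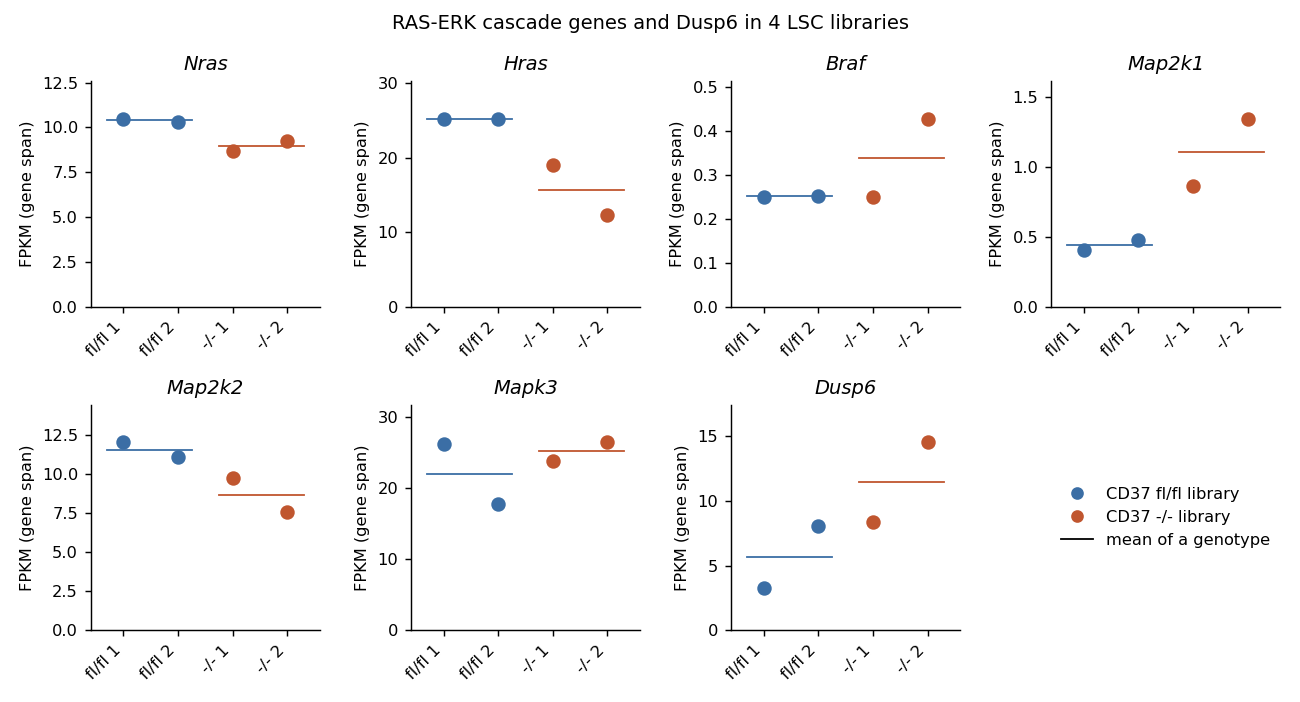
FPKM on the gene span (y axes, from 0) of the 7 genes in each library (x axes); blue points are CD37 fl/fl libraries, orange points CD37 -/- libraries, and lines the mean of each genotype. Hras, Nras and Map2k2 lie lower in both CD37 -/- libraries, Map2k1 and Dusp6 lie higher, and the genotypes overlap for Mapk3 and Braf.

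The promoters of Hras, Map2k1, Map2k2 and Dusp6 are shown because these members had the largest differences and went in opposite directions. They are the 250 bases before the RefSeq start of each gene on GRCm38.p6, 5′ to 3′ on the strand of the gene, and 6 of the 7 genes had an entry. Hras lies on chr7 (minus strand, window chr7:141194005-141194254), Map2k1 on chr9 (minus strand, chr9:64253606-64253855), and Map2k2 and Dusp6 on chr10 (plus strand, chr10:81105665-81105914 and chr10:99262981-99263230). Capitals mark matches, on either strand, to the GC box GGGCGG and the CCAAT box CCAAT.
Hras: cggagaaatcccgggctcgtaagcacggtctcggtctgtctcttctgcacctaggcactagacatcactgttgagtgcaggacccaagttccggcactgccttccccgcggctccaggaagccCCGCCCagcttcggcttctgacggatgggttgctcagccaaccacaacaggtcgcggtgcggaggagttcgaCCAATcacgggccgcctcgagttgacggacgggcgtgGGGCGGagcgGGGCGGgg
Map2k1: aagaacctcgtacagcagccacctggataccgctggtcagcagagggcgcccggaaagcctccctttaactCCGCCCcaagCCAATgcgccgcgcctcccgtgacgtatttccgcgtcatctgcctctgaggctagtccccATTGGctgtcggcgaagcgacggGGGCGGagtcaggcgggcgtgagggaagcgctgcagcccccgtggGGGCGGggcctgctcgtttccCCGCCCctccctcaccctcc
Map2k2: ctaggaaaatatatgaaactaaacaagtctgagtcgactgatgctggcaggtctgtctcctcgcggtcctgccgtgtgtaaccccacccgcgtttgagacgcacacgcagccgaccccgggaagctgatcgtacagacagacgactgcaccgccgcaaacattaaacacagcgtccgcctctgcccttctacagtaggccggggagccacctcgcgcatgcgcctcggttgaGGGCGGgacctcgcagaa
Dusp6: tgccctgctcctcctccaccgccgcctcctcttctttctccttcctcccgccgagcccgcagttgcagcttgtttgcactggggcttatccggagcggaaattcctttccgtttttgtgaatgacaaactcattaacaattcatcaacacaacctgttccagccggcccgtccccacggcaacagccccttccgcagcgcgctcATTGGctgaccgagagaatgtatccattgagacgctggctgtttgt
Map2k1 held 4 GC boxes and 2 CCAAT boxes, Hras 3 and 1, Map2k2 1 GC box and no CCAAT box, and Dusp6 no GC box and 1 CCAAT box. Of 32851 promoters of the same length, 32.7% held a GC box and 33.9% a CCAAT box, so both were common. An ETS site (CCGGAAG), an AP-1 site (TGAGTCA), a cAMP response element (TGACGTCA), an E-box (CACGTG) and a TATA box (TATAAA) were also searched on both strands, and these letters were in none of the 4 windows. In the windows not printed, Nras held 2 GC boxes and 1 E-box, and Braf held 1 GC box and 2 cAMP response elements, which 1.55% of promoters held at least once. The matches are a description of the letters, and no binding was measured. The GC content was 68.4% for Map2k1, 65.6% for Hras, 59.6% for Map2k2 and 56.4% for Dusp6.

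Of the RAS genes, Hras was lower in CD37 -/- LSCs by more than Nras. Hras (ENSMUSG00000025499, GRCm38 chr7:141189105-141194005) encodes a GTPase that is anchored to the membrane by farnesyl and palmitoyl groups. Its FPKM was 25.2 in both libraries of CD37 fl/fl against 19.1 and 12.3 in those of CD37 -/-, from 1893, 2142, 1657 and 1364 reads. The CD37 fl/fl libraries were alike, both CD37 -/- libraries lay below them, and replicate 2 lay lowest. The mean was 25.2 ± 0.0162 in CD37 fl/fl and 15.7 ± 4.78 in CD37 -/- (SD, n = 2), or 62.2% of the former. The log2 fold change was -0.68 (SE 0.28, 95% interval -1.37 to 0.0043), with a Benjamini-Hochberg adjusted p of 0.209 in limma. Without CD37 -/- replicate 2 it was -0.39, and without CD37 -/- replicate 1 it was -0.98.

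Nras (ENSMUSG00000027852, chr3:103058285-103067914) encodes the RAS protein most often mutated in myeloid leukemia. It had an FPKM of 10.5 and 10.3 in CD37 fl/fl and of 8.69 and 9.25 in CD37 -/- libraries, from 1484 to 2015 reads. The genotypes were separated by a gap of 1.06 FPKM, with little spread within either. The CD37 -/- mean was 86.2% of the CD37 fl/fl mean, and the log2 fold change was -0.19 (SE 0.20, adjusted p of 0.558 in limma with Benjamini-Hochberg adjustment), which turned to 0.16 when each library was rescaled to the same sum (TPM).

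Levels of different genes were compared per kilobase of exon, with the recovered reads divided by exon length in place of the gene span. On this scale, which like FPKM is scaled to the library size, Hras stood at 33.1 and 33.1 in CD37 fl/fl and at 25.0 and 16.1 in CD37 -/-, and Nras at 18.9, 18.6, 15.7 and 16.7 in the same order. The ratio of Nras to Hras was thus 0.573 and 0.562 in CD37 fl/fl against 0.627 and 1.03 in CD37 -/-. Hras was the more abundant of the pair in all libraries but CD37 -/- replicate 2, where Nras was level with it. Their sum was 52.03 and 51.7 in CD37 fl/fl against 40.7 and 32.9 in CD37 -/-, so that it was lower in both CD37 -/- libraries. With 2 libraries against 2, an exact permutation test of such a ratio cannot reach p < 0.05, so the ratios are a description. Whether reads in introns were counted is not given in the sources used here, and if they were, the scale is too high for genes with long introns.

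The RAF gene Braf overlapped between the genotypes. Braf (ENSMUSG00000002413, chr6:39603237-39725463) encodes the RAF kinase with the highest basal activity. Its FPKM was 0.249 and 0.252 in CD37 fl/fl against 0.250 and 0.428 in CD37 -/-, from 467, 534, 543 and 1184 reads, so that 3 libraries were alike and CD37 -/- replicate 2 stood above them. Its low FPKM goes with a gene span 8.82 times the exon length, and it was below the filter on low values. In the limma fit of all genes above 0 its log2 fold change was 0.10 (SE 0.08, adjusted p of 0.564 with Benjamini-Hochberg adjustment), and with limma-voom on the recovered reads, which needs no pseudocount, 0.40 (SE 0.33, adjusted p of 0.470 with Benjamini-Hochberg adjustment). Without CD37 -/- replicate 2 they were -0.00033 and -0.0020. Exons of Braf and Ndufb2, on the opposite strand, share 146 bases, and with the strand setting of the counting not given in the sources used here, reads there cannot be assigned.

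Araf, another RAF gene, was more abundant than Braf in all 4 libraries. Per kilobase of exon it stood at 14.4 and 16.5 in CD37 fl/fl against 16.5 and 16.9 in CD37 -/-, where Braf had 2.20, 2.22, 2.21 and 3.77 in the same order.

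The MEK genes differed in opposite directions. Map2k1 (ENSMUSG00000004936, chr9:64185770-64253631) and Map2k2 (ENSMUSG00000035027, chr10:81105915-81133975) encode MEK1 and MEK2, the dual-specificity kinases that phosphorylate ERK on a threonine and a tyrosine. Map2k1 had an FPKM of 0.404 and 0.474 in CD37 fl/fl and of 0.861 and 1.35 in CD37 -/-, from 420, 557, 1037 and 2067 reads. Both CD37 -/- libraries lay above both CD37 fl/fl libraries, and CD37 -/- replicate 2 lay highest. The mean was 0.439 ± 0.0494 in CD37 fl/fl against 1.10 ± 0.343 in CD37 -/- (SD, n = 2), a ratio of 2.52. The gene span is 20.0 times the exon length, which put Map2k1 below the filter at a mean FPKM of 0.771. Uchl4, Gm24106 and Gm48855 lie in its introns on the opposite strand. In the limma fit of all genes its log2 fold change was 0.54 (SE 0.17, adjusted p of 0.281 with Benjamini-Hochberg adjustment), a scale on which the pseudocount of 1 shrinks it. With limma-voom on the reads it was 1.30 (SE 0.32, 95% interval 0.58 to 2.03, adjusted p of 0.0813 with Benjamini-Hochberg adjustment). It was 0.97 without CD37 -/- replicate 2 and between 1.19 and 1.62 without any other library.

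Map2k2 had an FPKM of 12.03 and 11.1 in CD37 fl/fl and of 9.75 and 7.55 in CD37 -/-, from 4796 to 5388 reads. The genotypes did not overlap, and CD37 -/- replicate 2 was lowest, the library in which Map2k1 was highest. The mean was 11.6 ± 0.671 against 8.65 ± 1.56 (SD, n = 2), or 74.9% of the CD37 fl/fl mean. The log2 fold change was -0.39 (SE 0.22), with a Benjamini-Hochberg adjusted p of 0.319 in limma. Without CD37 -/- replicate 2 it was -0.22.

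Per kilobase of exon, Map2k1 was at 8.08, 9.48, 17.2 and 26.9 and Map2k2 at 59.6, 54.9, 48.3 and 37.4 in CD37 fl/fl replicates 1 and 2 and CD37 -/- replicates 1 and 2. Map2k1 therefore made up 11.9% and 14.7% of the MEK transcripts in CD37 fl/fl against 26.3% and 41.9% in CD37 -/-. The sum of both genes was 67.7 and 64.4 in CD37 fl/fl against 65.6 and 64.4 in CD37 -/-, so the genotypes overlapped in the sum while they were apart in the make-up. In log2, the ratio of Map2k1 to Map2k2 was -2.71 ± 0.25 in CD37 fl/fl and -0.98 ± 0.72 in CD37 -/- (SD, n = 2), a difference of 1.73. Map2k2 was the more abundant MEK gene in all 4 libraries. Of the 50-base stretches of their exons, 0.207% for Map2k1 and 0.122% for Map2k2 were found in 1 other gene. Few reads from exons could therefore be shared, and introns were not searched. The difference of 1.73 does not depend on the length used or on the scaling of a library, since both genes are read in the same one. The sum and the shares do depend on the length used. On the deposited FPKM, per gene span, Map2k1 counts for less beside Map2k2, and their sum was lower in both CD37 -/- libraries.

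**Figure D2:**
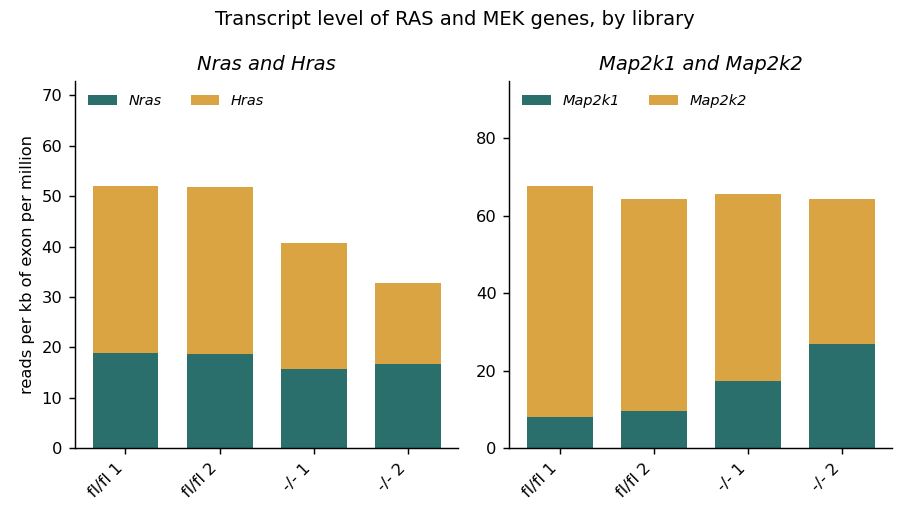
Recovered reads per kilobase of exon, scaled to the library size (y axes, from 0), of Nras and Hras and of Map2k1 and Map2k2, stacked by gene, in each library (x axes). The MEK sum is between 64.4 and 67.7 in all 4 libraries. The Map2k1 part runs from 11.9% in CD37 fl/fl replicate 1 to 41.9% in CD37 -/- replicate 2. The sum of Nras and Hras is lowest, at 32.9, in CD37 -/- replicate 2. Sums and parts are those per kilobase of exon and depend on the length used.

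The ERK gene Mapk3 overlapped between the genotypes. Mapk3 (ENSMUSG00000063065, chr7:126759601-126765819) had an FPKM of 26.3 and 17.7 in CD37 fl/fl and of 23.8 and 26.4 in CD37 -/-, from 2503, 1912, 2631 and 3719 reads. A single CD37 fl/fl library, replicate 2, was low, and the other 3 lay between 23.8 and 26.4. The log2 fold change was 0.21 (SE 0.28, 95% interval -0.47 to 0.89), with a Benjamini-Hochberg adjusted p of 0.656 in limma, and without CD37 fl/fl replicate 2 its direction turned, to -0.06, as it did with division by the upper quartile (-0.05). The neutrophil granule markers were lowest in the same library, and their part in the Mapk3 level was not tested.

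Dusp6 had the widest spread within a genotype, relative to its mean. Dusp6 (ENSMUSG00000019960, chr10:99263231-99267489) encodes a dual-specificity phosphatase selective for ERK. Its FPKM was 3.26 and 8.08 in CD37 fl/fl against 8.36 and 14.5 in CD37 -/-, from 213, 596, 632 and 1402 reads. The genotypes did not overlap, but only 0.289 FPKM lay between CD37 fl/fl replicate 2 and CD37 -/- replicate 1. The mean was 5.67 ± 3.40 in CD37 fl/fl against 11.5 ± 4.37 in CD37 -/- (SD, n = 2), a ratio of 2.02. The log2 fold change was 0.96 (SE 0.43, 95% interval -0.11 to 2.02), with a Benjamini-Hochberg adjusted p of 0.234 in limma. It was 0.41 without CD37 fl/fl replicate 1, 0.59 without CD37 -/- replicate 2, 1.32 without CD37 -/- replicate 1 and 1.501 without CD37 fl/fl replicate 2. The size of the difference therefore rests on which libraries are included. Its direction could not turn in these fits, since the genotypes did not overlap.

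**Figure D3:**
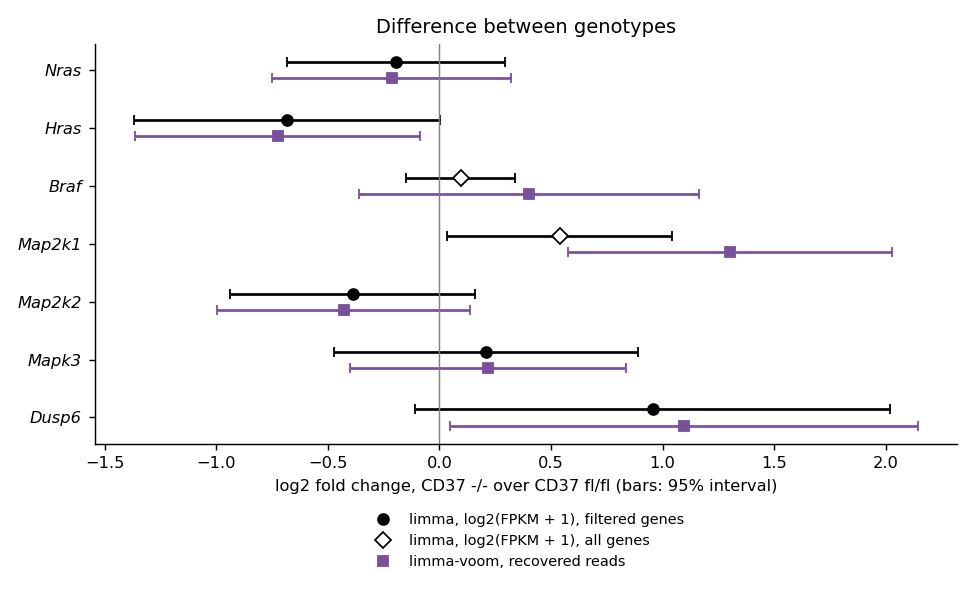
Log2 fold change of CD37 -/- over CD37 fl/fl (x axis) for the 7 genes (y axis) with 95% intervals. Circles are limma on log2(FPKM + 1) after the filter, open diamonds the same fit of all genes for Braf and Map2k1, and squares limma-voom on the recovered reads. The limma-voom intervals of Hras, Map2k1 and Dusp6 lie to one side of 0 before adjustment for 13056 genes, and those of the other 4 genes include 0.

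By limma-voom on the recovered reads all 7 genes could be fitted, with Map2k1 at 1.30, Dusp6 at 1.10, Braf at 0.40, Mapk3 at 0.22, Nras at -0.21, Map2k2 at -0.43 and Hras at -0.72 (log2 fold change). At an unadjusted p under 0.05, 2 members were higher (Map2k1 and Dusp6; 19.3% of the 13056 genes) and 1 was lower (Hras; 6.08% of genes). After Benjamini-Hochberg adjustment over these genes their adjusted p in limma-voom was 0.0813, 0.182 and 0.157. The median log2 fold change of all genes itself depended on the scaling, from 0.11 with the FPKM as deposited to 0.49 with TPM rescaling, -0.02 with quantile normalization and -0.09 with division by the upper quartile. Relative to the median of all genes, over 7 scalings and fits, Hras stood at -0.98 to -0.66, Map2k2 at -0.69 to -0.46, Nras at -0.47 to -0.28 and Dusp6 at 0.80 to 0.95. Map2k1 and Braf, over the 3 fits that held them, stood at 1.02 to 1.04 and at 0.09 to 0.14. Mapk3, at -0.04 to 0.29, was the only member whose side of the median changed. Rescaling a library moves the log2 fold changes of all genes by nearly the same amount, which subtracting the median takes out. The narrow ranges are therefore partly built in.

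The members also differ in length, and so did the fold changes of all genes. With the 13056 genes in 5 equal groups by genomic span, the median limma-voom log2 fold change was -0.03 in the shortest group, which holds Hras and Dusp6, 0.12 in the second, with Nras and Mapk3, 0.29 in the third, with Map2k2, 0.41 in the fourth and 0.38 in the longest, with Braf and Map2k1. Braf lay 0.03 above the median of its group, and Mapk3 0.10 above. Map2k1 lay 0.93 and Dusp6 1.13 above the median of their groups, and Nras lay at -0.34, Hras at -0.69 and Map2k2 at -0.72 relative to theirs. Araf lay at -0.26. The part of gene span in the differences was not tested.

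**Figure D4:**
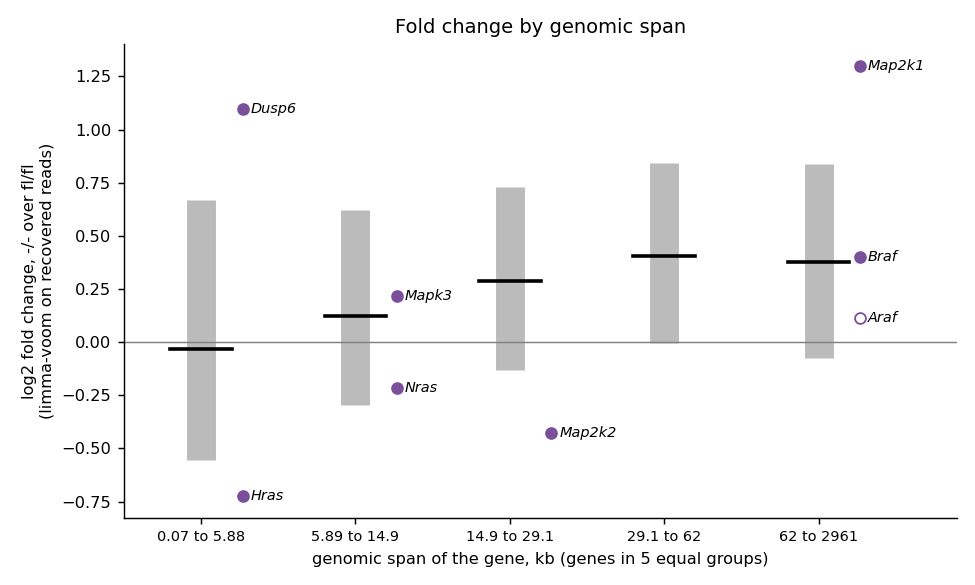
Limma-voom log2 fold change of CD37 -/- over CD37 fl/fl (y axis) by genomic span in kilobases (x axis, 5 equal groups of the 13056 genes). Black lines are medians and grey bars the middle 50% of genes, filled points are members and the open point is Araf. Map2k1 and Dusp6 lie above and Hras and Map2k2 below the grey bar of their group, and Braf lies at the median.

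Ordered by level per kilobase of exon in CD37 fl/fl, the members were Mapk3 (60.6 ± 16.6), Map2k2 (57.3 ± 3.32), Hras (33.1 ± 0.0213), Nras (18.8 ± 0.230), Map2k1 (8.78 ± 0.989), Dusp6 (7.71 ± 4.63) and Braf (2.21 ± 0.0178, SD, n = 2 for each). Mapk3 and Map2k2 overlapped in their libraries, as did Map2k1 and Dusp6, and the other neighbours were apart. In CD37 -/- the order was Mapk3 (69.3 ± 5.03), Map2k2 (42.9 ± 7.71), Map2k1 (22.1 ± 6.86), Hras (20.6 ± 6.27), Nras (16.2 ± 0.716), Dusp6 (15.6 ± 5.95) and Braf (2.99 ± 1.11, SD, n = 2 for each). There the libraries of Map2k1, Hras, Nras and Dusp6 overlapped from each neighbour to the next. Map2k1 thus lay below Nras in CD37 fl/fl and its libraries overlapped those of Hras in CD37 -/-.

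Genes with the pattern most like that of each member were sought by the distance between the 4 centred values of log2(FPKM + 1), over the tested genes with a symbol (5858, or 5859 for Braf and Map2k1). For Hras the nearest were Phf5a (distance 0.0192; FPKM 32.2, 32.5, 24.2 and 15.9) and Cox6b1 (0.0705), and for Map2k2 they were Commd9 (0.0189) and Spag7 (0.0262). Spi1 (0.0543; FPKM 16.2, 11.3, 14.9 and 16.2) and Kctd11 (0.0591) lay nearest to Mapk3, and both were lowest in CD37 fl/fl replicate 2. Nearest to Dusp6 was Myc (0.0754), with an FPKM of 8.69 and 19.8 in CD37 fl/fl and of 20.2 and 32.3 in CD37 -/-, followed by Pabpc1 (0.168). The nearest to Map2k1 were Gmpr2 (0.0334) and Fmnl1 (0.0336), to Nras Ube2r2 (0.0441) and Sar1a (0.0518), and to Braf Ube4a (0.0170) and Ccdc97 (0.0225). A likeness over 4 libraries is a description of these libraries.

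Other genes of the pathway were read by role, from lists of 80 genes, of which 76 were in the table, 30 passed the filter on FPKM and 72 had at least 10 reads on average. In the limma fit of log2(FPKM + 1), 5 of the 30 were higher and 1 was lower at an unadjusted p under 0.05, compared with 16.1% and 7.96% of all genes, and 0 had an adjusted p under 0.05. Their median log2 fold change was 0.26, beside 0.11 for all genes tested. By limma-voom, 14 of 72 were higher and 2 lower at an unadjusted p under 0.05, beside 19.3% and 6.08% of all 13056 genes, and 0 had an adjusted p under 0.05. The median was 0.38, beside 0.26. The counts by limma-voom given for the lists are at the same unadjusted p, and each is to be read against these shares of all genes.

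Upstream of RAS, the receptor, adaptor and exchange factor genes had 5 of 14 above the filter, and 2 of them were higher at an unadjusted p under 0.05. Shc1, an adaptor that links receptors to GRB2, had an FPKM of 5.85 and 6.27 in CD37 fl/fl and of 9.32 and 12.03 in CD37 -/- (log2 fold change 0.72, SE 0.22, adjusted p of 0.145 in limma with Benjamini-Hochberg adjustment). Ptpn11, the phosphatase SHP2 that promotes RAS activation, had 0.800 and 1.22 against 1.61 and 2.27 (0.55, SE 0.21, adjusted p of 0.188 in limma with Benjamini-Hochberg adjustment). Both were without overlap. By limma-voom 3 of 13 were higher (19.3% of all genes) and 0 lower, and the median log2 fold change was 0.40.

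Among the genes of RAS GTPase-activating proteins, which return RAS to its GDP-bound form, only Rasal3 passed the filter. Its FPKM was 2.94 and 1.73 in CD37 fl/fl against 4.81 and 3.64 in CD37 -/- (log2 fold change 0.66, SE 0.25, adjusted p of 0.185 in limma with Benjamini-Hochberg adjustment). By limma-voom 3 of 10 were higher (19.3% of all genes) and 0 lower, with a median of 0.56. Of the genes that attach RAS to lipids and move it to membranes, Icmt, which methylates the farnesylated end of RAS proteins, had an FPKM of 1.95 and 2.23 in CD37 fl/fl against 3.29 and 4.77 in CD37 -/- (0.69, SE 0.21, adjusted p of 0.147 in limma with Benjamini-Hochberg adjustment). It was the only one of 4 at an unadjusted p under 0.05, and 2 of 7 were higher by limma-voom, with a median of 0.48. These lists lay above the median of all genes while Hras and Nras lay below it.

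The scaffolds and binding partners went both ways. Pebp1 encodes the RAF kinase inhibitor protein, which keeps RAF kinases from MEK, and had an FPKM of 38.9 and 52.5 in CD37 fl/fl and of 24.7 and 19.4 in CD37 -/-. Both CD37 -/- libraries were lower, with a log2 fold change of -1.01 (SE 0.28) and an adjusted p of 0.134 in limma with Benjamini-Hochberg adjustment. It was the only one of 5 tested genes of the list at an unadjusted p under 0.05, and by limma-voom 1 of 8 was higher and 1 lower, with a median of 0.36.

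Feedback regulators were compared with Dusp6. Spry2, a Sprouty inhibitor induced by ERK signaling, had an FPKM of 3.47 and 4.12 in CD37 fl/fl and of 10.1 and 7.99 in CD37 -/-, with a log2 fold change of 1.06 (SE 0.21) and an adjusted p of 0.0908 in limma with Benjamini-Hochberg adjustment. Like Dusp6 it was higher in both CD37 -/- libraries, with a wider gap. It was the only tested gene of its list in the FPKM fit, and by limma-voom 1 of 5 was higher and 0 lower, with a median of 0.46. The genotypes overlapped for all 5 other MAP kinase phosphatase genes above the filter, beside 2576 of all 6761 genes. They also overlapped for all 7 with enough reads for limma-voom, beside 5218 of all 13056 genes, and the median there was 0.17. Dusp2, a nuclear phosphatase, had an FPKM of 16.2 and 30.4 in CD37 fl/fl and of 14.2 and 23.3 in CD37 -/-. Dusp7, which like Dusp6 is a cytoplasmic ERK phosphatase, had 1.80 and 2.46 against 2.45 and 4.22.

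Of the transcripts known to be induced by ERK activity, 12 of 13 were in the table and 5 passed the filter, and 1 of these, Spry2 again, was at an unadjusted p under 0.05. By limma-voom 1 of 10 was higher (Spry2) and 1 lower, with a median of 0.11, below the 0.26 of all genes. The lower gene, named here after its values were seen, was Etv5, an ETS factor, with an FPKM of 0.135 and 0.564 in CD37 fl/fl and of 0.0405 and 0.0689 in CD37 -/- (log2 fold change -2.39, SE 0.77, adjusted p of 0.115 in limma-voom with Benjamini-Hochberg adjustment). Dusp6 and Spry2 were thus higher and Etv5 lower, none past the adjusted threshold. Of the kinases downstream of ERK, Mknk2 had an FPKM of 10.4 and 12.9 in CD37 fl/fl and of 13.1 and 15.5 in CD37 -/-, and Rps6ka1, the ribosomal S6 kinase RSK1, had 11.5 and 8.25 against 12.4 and 13.6. By limma-voom 2 of 6 were higher (19.3% of all genes) and 0 lower (6.08%), with a median of 0.43.

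**Figure D5:**
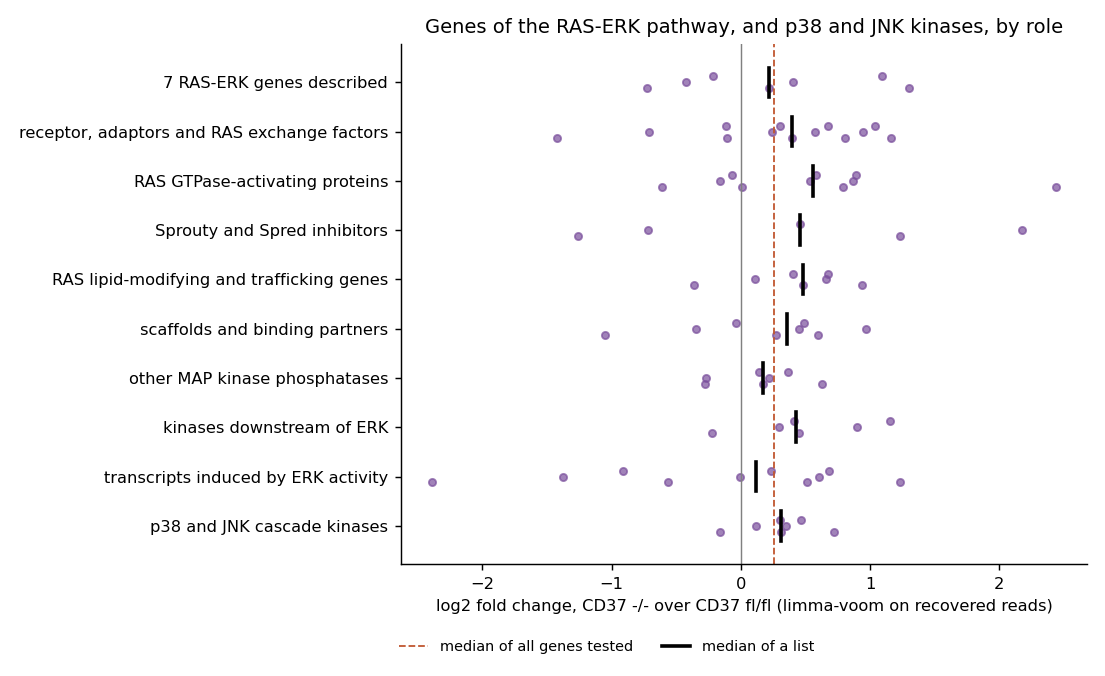
Limma-voom log2 fold change of CD37 -/- over CD37 fl/fl (x axis) for genes of the RAS-ERK pathway by role and for p38 and JNK cascade kinases (y axis), 1 point a gene. Black bars are the median of each list and the dashed line is the median of all 13056 genes, 0.26. The 7 genes described spread from -0.72 to 1.30 around a median of 0.22.

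The p38 and JNK cascades, which run through other MEK and MAP kinases, served as a comparison of the same kind of gene. Of 9 genes in the table, 4 passed the filter, and 0 were at an unadjusted p under 0.05 in the FPKM fit. By limma-voom 1 of 7 was higher, Map2k4, with an FPKM of 0.798 and 0.887 in CD37 fl/fl and of 1.09 and 1.76 in CD37 -/- (log2 fold change 0.72, SE 0.29, adjusted p of 0.171 in limma-voom with Benjamini-Hochberg adjustment). The median was 0.31, and the range, -0.16 to 0.72, was narrower than that of the 7 RAS-ERK genes. No test was made of that difference.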

How the data were processed

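Poly(A) RNA of YFP+, c-kit+ bone marrow LSCs was made into strand-specific libraries, 2 for each genotype. The authors deposited 1 table of FPKM values, with 1 column per library, no log and no pooling. The submitters' processing notes name fastp 0.20.1, STAR 2.7.7a, featureCounts 2.0.0, edgeR and mm39, with no role or order. The deposited FPKM came out as whole reads for 98.9% of values in each library (within 0.05 read, met by 10.0% of values by chance) with the gene spans of GENCODE M21 on GRCm38, introns included. Names and positions come from that annotation, which matched 17045 of 17104 identifiers (99.7%), and RefSeq gave the promoters. Recovered totals, not stated by the authors, were 15327357 and 17327701 reads for CD37 fl/fl and 17740457 and 22627491 for CD37 -/-.

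Fold changes are on the log2(FPKM + 1) scale, on which low genes change by less than they should. The 6761 genes whose mean FPKM was 1 or more were fitted in R 4.3.3 with limma 3.58.1 and statmod 1.5.0 (lmFit, eBayes with trend), without a block, two-sided, with Benjamini-Hochberg adjustment over all of them and a threshold of 0.05. Braf and Map2k1 were below the filter and were read from the fit of all 16973 genes above 0. Limma-voom was run on the recovered reads of 13056 genes, those with 10 or more reads on average. SE values are standard errors of the log2 fold change. The code was tested on simulated data. Plots were drawn with matplotlib 3.10.9, and tables were joined with pandas 2.3.3 and numpy 2.4.6 (Python 3.11.15).

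The members and the lists were chosen with earlier results of these data known. Genes named are the members, Cd37, Araf, the 2 nearest genes of each member and, in each list, up to 4 tested genes with an unadjusted p under 0.05 and no overlap, or else the 2 with the highest mean FPKM. Alternatives were a pseudocount of 0.1, filters of 0 and 5 FPKM, 3 other scalings, eBayes without a trend or robust, a block by replicate number, omission of each library, exon length and limma-voom. Limma-voom scaled to equal medians, with the block or without each library, and all genes with a pseudocount of 0.1, were added after the data were seen. Some genes that this rule names are not reported here. Intronic and exonic reads were not separated here.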

Additional observations from a re-analysis of the deposited data

How the results depend on the processing

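Over 22 alternatives (13 for Map2k1 and Braf), the log2 fold changes of Hras (-1.08 to -0.33), Map2k2 (-0.79 to -0.05), Dusp6 (0.41 to 1.77) and Map2k1 (0.37 to 1.62) kept their direction. That of Nras reversed with TPM rescaling, to 0.16, that of Mapk3 with upper quartile division (-0.0496), with limma-voom scaled to equal medians (-0.15) and without CD37 fl/fl replicate 2 (-0.0623 in the FPKM fit, -0.0645 by limma-voom), and that of Braf without CD37 -/- replicate 2 (-0.00033 in the all-gene fit, -0.0020 by limma-voom). With 1 library left out of the FPKM fits, Mapk3 ranged from -0.0623 to 0.48 and Braf from -0.00033 to 0.19, and by limma-voom from -0.0645 to 0.50 and from -0.0020 to 0.77. For Hras, Map2k2, Dusp6 and Map2k1 such an omission could not turn the direction, since the genotypes did not overlap. A change of filter, eBayes setting or block leaves a log2 fold change of the FPKM fit as it was.

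The number of all genes at an adjusted p under 0.05 was 0 in the FPKM fit, 45 with a mean FPKM of at least 5 (fewer genes tested), 88 with robust eBayes and 16 with exon length, and 1626 had an unadjusted p under 0.05. Leaving out 1 library gave 0 to 310 genes, the higher counts by limma-voom without CD37 fl/fl replicate 1 (310) and CD37 -/- replicate 1 (63). With 2 libraries a side, a left-out library leaves 1 sample that is assumed to vary like the others. The cause of these changes was not tested.

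Same-numbered replicates did not deviate together from their group means (r = -0.04 over 6761 genes), so the numbers are not shown to pair. With the replicate number as a block, 73 of 6761 genes were called in the FPKM fit and 556 of 13056 by limma-voom. The limma-voom block was added after the data were seen. Under the limma-voom block Map2k1 had an adjusted p of 0.0418, the 1 member called, and Cd37 (-1.16) an adjusted p of 0.0462.

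The median log2 fold change of the pathway lists, 0.26, was 0.0485 with all genes, 0.66 with TPM rescaling, 0.0268 with upper quartile division and 0.0311 with limma-voom scaled to equal medians. By limma-voom it was 0.40 without CD37 fl/fl replicate 2 and 0.48 without CD37 -/- replicate 1. Paralog ratios per gene span in place of exon length moved the CD37 fl/fl mean log2 ratio from -2.71 to -4.72 (Map2k1 over Map2k2) and from -0.82 to -1.28 (Nras over Hras), while differences between genotypes stayed as they were, since the lengths are the same in each library. The members had 213 to 5388 reads in a library, and the precision is limited by 2 libraries for each genotype.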
